A study of Arabidopsis thaliana with 3 samples.

Results

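PORB, LHCB4.1, PSAE1, RCA and AT3G44450 are nuclear genes whose products make chlorophyll, hold it in the light-harvesting antenna, work beside it in photosystem I, activate rubisco or hold back a blue-light receptor. These 5 genes were chosen from their signals and ratios on the arrays described here, so their own differences are given as descriptions and were not tested. They are 5 of the 13286 genes that have a probe set naming no other gene, and each is read by 1 probe set. All 5 loci carry nuclear locus numbers, PORB being AT4G27440, LHCB4.1 AT5G01530, PSAE1 AT4G28750 and RCA AT2G39730, and AT3G44450 is known as the cryptochrome inhibitor BIC2.

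RNA came from leaves of Arabidopsis thaliana plants aged 2 weeks. The 3 arrays hold 1 genotype each: Col-0, titled as untreated, and a pair of lines in that background which overexpress MKK2, a MAP kinase kinase, either as the wild-type protein or as a constitutively active form. Line A is the array titled w.t.4 with the source name EE4, and line B is the array titled EE4 with the source name w.t.4, so which of them carries the active form is not settled and no direction between the forms is given. The sources used here do not give the promoter of the transgenes, the number of plants per sample or whether a line is 1 transformant. Every group thus has 1 sample, no value has a replicate error, and no test between genotypes was possible. Leaf RNA is a mixture of cell types, in which fewer cells of a type and less RNA per cell cannot be told apart.

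Chlorophyll is built in the plastid from glutamate through a chain of nuclear-encoded enzymes. In flowering plants its light-dependent step, the reduction of protochlorophyllide, is made by the protochlorophyllide oxidoreductases, of which PORB and PORC are known to be expressed in green leaves. Finished chlorophyll is bound by the LHC proteins, which pass absorbed light to the photosystems. Cryptochromes are blue-light receptors, and BIC proteins bind cryptochrome and keep it from forming its active oligomers.

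Signals are MAS5 values on a linear scale, scaled to a common trimmed mean of 100 on every array, and a difference of 2-fold or more was counted as higher or lower. Median signals of the arrays lay between 31.5 and 35.3. The 3′ to 5′ signal ratio, a sign of RNA integrity, was read from 3 control transcripts (actin, GAPDH and ubiquitin), each by 2 pairs of probe sets. These 6 ratios ranged from 0.816 to 3.75 for Col-0, from 1.15 to 4.09 for line A and from 0.966 to 3.83 for line B. In each line 4 of the 6 ratios were above those of Col-0, and their part in the results below was not tested. Of the mesophyll markers 3 of 6 could be read, RCA, LHCB4.1 and PSAE1, which are also among the chosen genes and so give no independent check of the leaf label. Their signals summed to 15607 for Col-0, 15092 for line A and 16354 for line B. Of the root markers 1 of 5 could be read, EXPA7, at 23.1, 12.9 and 18.6, all under the floor of 25 that was set for low signals. Of the guard cell markers 2 of 4 could be read, with signals that summed to 430 for Col-0, 356 for line A and 342 for line B. Most of each sum was GC1, at 375, 315 and 290. The other, FAMA, read 55.0, 41.0 and 52.4, with line B close to Col-0, so the markers differ on line B. No marker on the flower, seed or vascular lists has a probe set named here.

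PORB separated the lines. The Col-0 array gave a signal of 435, the line A array 192 and the line B array 529. Line A was the low array, 2.26-fold below Col-0 and 2.76-fold below line B, while line B was 1.22-fold above Col-0. Among the 6697 probe sets with a signal of 100 or more on at least 1 array, 29 (0.433%), PORB included, had a ratio of line A over Col-0 as low as that of PORB. For line A over line B the number was 3 (0.0448%). Both of these ratios rest on the same line A array, and a chance deviation of that array would enter both. PORB is the only one of the 5 genes that was 2-fold or more lower in line A than in Col-0, where 0.391% of all 22746 probe sets were lower by that rule, and none of the 5 was higher, against 1.4% of all probe sets. It is also the only one that was 2-fold lower in line A than in line B (0.18% of all probe sets), and none was 2-fold higher there (0.585%).

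AT3G44450 stood highest in Col-0. Signals of 301 (Col-0), 165 (line A) and 143 (line B) were read. Col-0 was the high array and the lines lay close together, 1.15-fold apart. Line B was 2.11-fold below Col-0 and line A 1.83-fold, so that this gene passed the 2-fold rule in line B and not in line A. In line B it is the only one of the 5 genes that was 2-fold lower, where 0.536% of all probe sets were lower. None of the 5 was higher, against 0.941%. Of the 6697 brighter probe sets, 58 were lower and 170 higher by the 2-fold rule. Among the 6697 brighter probe sets, 45 (0.672%) had a ratio of line B over Col-0 as low as this one, and 69 (1.03%) had a ratio of line A over Col-0 as low. Both of these differences were taken against the same Col-0 array, and a chance deviation of that array would enter both. The call in line B sits near the threshold: the log2 ratio was -1.08, and it was -0.998 with a pseudocount of 16 in place of the floor, which is short of 2-fold.

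**Figure D1:**
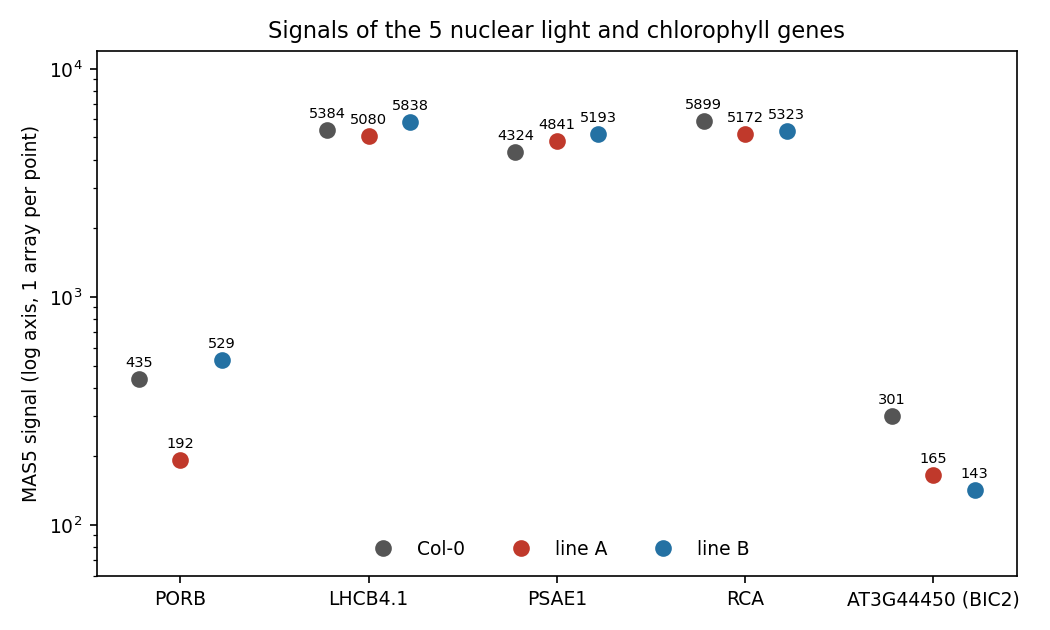
MAS5 signal of each of the 5 genes on a log axis, with 1 point per array (Col-0 grey, line A red, line B blue) and its value above it. PORB is low in line A alone (192 against 435 and 529), AT3G44450 is high in Col-0 alone (301 against 165 and 143), and the arrays lie close together for LHCB4.1, PSAE1 and RCA.

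The 3 genes of the photosynthetic machinery had signals of 4324 or more on every array, and the largest of their differences was a log2 ratio of 0.26, that of PSAE1 in line B over Col-0; under quantile normalization it was 0.32, for PSAE1 in line A over Col-0. LHCB4.1 encodes CP29, a minor antenna protein that links the major light-harvesting complex to the core of photosystem II. Col-0 gave a signal of 5384, line A gave 5080 and line B gave 5838. Line B was thus the highest and line A the lowest, with log2 ratios over Col-0 of 0.12 and -0.08, and the latter was 0.074 under quantile normalization.

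PSAE1 encodes a stromal subunit of photosystem I that helps ferredoxin to dock. For PSAE1, Col-0 read 4324, line A 4841 and line B 5193. Col-0 was the lowest of the arrays, with log2 ratios of 0.16 for line A and 0.26 for line B. The ratio of line A over line B, -0.10, was 0.025 under quantile normalization, so the order of the lines is not settled.

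RCA encodes rubisco activase, which frees the active site of rubisco from inhibitory sugar phosphates. Its signal of 5899 in Col-0 stood against 5172 in line A and 5323 in line B. Col-0 was the highest array here, with log2 ratios of -0.19 and -0.15 in lines A and B, which were -0.016 and -0.094 under quantile normalization. The lines differed by a log2 ratio of -0.04, which was 0.078 under quantile normalization. For comparison, 616 probe sets had a mean signal of 1000 or more, and the central 95% of their ratios over Col-0 ran from 0.723 to 1.63 (line A) and from 0.684 to 1.57 (line B). LHCB4.1, PSAE1 and RCA all lay inside these ranges, which hold array noise and real differences together. Whether signals this bright were compressed was not tested.

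**Figure D2:**
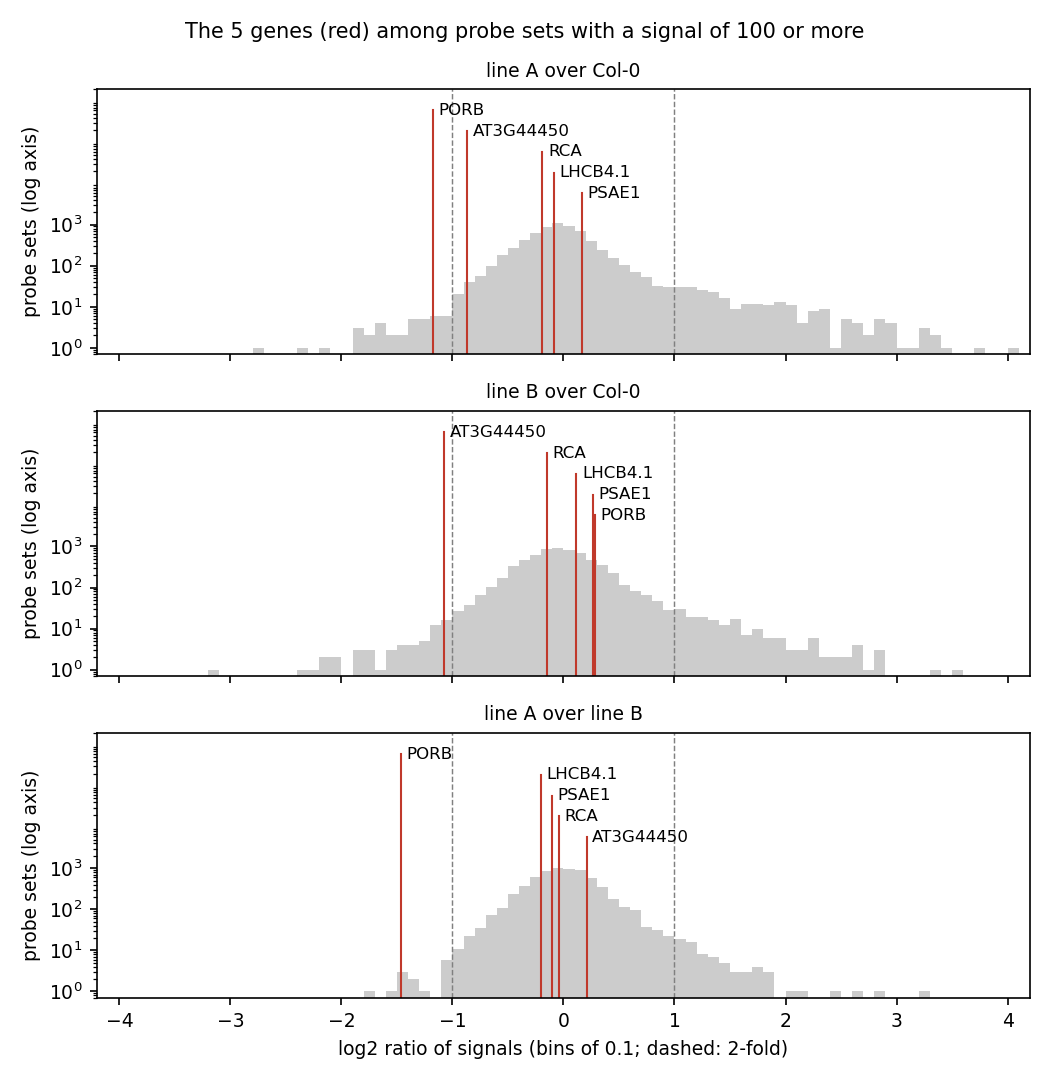
Histograms (bins of 0.1, log axis) of the log2 ratios of the 6697 probe sets with a signal of 100 or more on at least 1 array, with the 5 genes as red lines whose heights carry no value and with dashed lines at 2-fold. PORB lies in the lower tail for line A over Col-0 and over line B (log2 ratios of -1.18 and -1.46). AT3G44450 lies in the lower tail over Col-0 (-0.87 in line A, -1.08 in line B), and the other genes lie in the bulk. The upper and middle panels share the Col-0 array, and the upper and lower panels share the line A array.

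As a group, the 5 genes had median log2 ratios over Col-0 of -0.19 (line A) and 0.12 (line B), against -0.04 and -0.03 over the 6697 brighter probe sets. The median between the lines was -0.10, against 0.00. The means of the 5 genes were -0.43, -0.11 and -0.32, so that mean and median differ in sign for line B. Under quantile normalization the medians were -0.016 (line A over Col-0), 0.16 (line B over Col-0) and 0.025 (line A over line B), the last of which turned sign. These medians were set by RCA, LHCB4.1 and PSAE1 in turn, and the genes did not move as one. PORB and AT3G44450 differed in which array stood apart, line A for the former and Col-0 for the latter.

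The rest of each pathway was read from 7 lists of 157 genes, of which 25 have a probe set of their own, the 5 genes included. The annotation used gives no gene to 8730 probe sets, so a gene that could not be read may still be on the array. None of the other 20 was 2-fold or more apart in any of the comparisons. Of all probe sets, 1.4% were higher and 0.391% lower in line A over Col-0. The shares were 0.941% and 0.536% in line B over Col-0, and 0.585% and 0.18% in line A over line B. With shares this small, a count of none among 20 genes does not set these lists apart. Their log2 ratios lay between -0.33 and 0.20 in line A over Col-0, between -0.10 and 0.62 in line B over Col-0 and between -0.64 and 0.08 in line A over line B.

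Of 26 chlorophyll synthesis genes, 9 could be read, and PORB was the only one past 2-fold in any comparison. At the start of the chain, GSA1, which forms aminolevulinic acid, had signals of 258, 296 and 305 in Col-0, line A and line B. HEMB1, which joins aminolevulinic acid into porphobilinogen, had 425, 475 and 533. Both were lowest in Col-0 and highest in line B, by at most 1.25-fold.

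Of the uroporphyrinogen decarboxylases, HEME1 had signals of 239, 222 and 346 and HEME2 of 395, 393 and 541. Line B was the high array for both genes, 1.45-fold and 1.37-fold above Col-0, while line A had log2 ratios of -0.10 and -0.01, the latter 0.0099 after loess centring. These are the largest ratios over Col-0 among the named genes of chlorophyll synthesis after that of PORB in line A. They stayed under the 2-fold rule.

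On the magnesium branch, CHLI2, a subunit of magnesium chelatase, had signals of 195, 177 and 189, and CHLM, which methylates magnesium protoporphyrin, had 2155, 1884 and 2331. GGR (AT1G74470), the geranylgeranyl reductase that supplies the phytol tail, had 4520, 3790 and 4278. Line A was the lowest array for each of these, with log2 ratios over Col-0 of -0.14, -0.19 and -0.25, against -1.18 for PORB. The remaining gene, HEMA2, a glutamyl-tRNA reductase outside the rule for named genes, had 119, 97.7 and 111. With PORB left out, the 8 genes had median log2 ratios of -0.12 (line A over Col-0), 0.18 (line B over Col-0) and -0.18 (line A over line B).

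The only gene of chlorophyll breakdown that could be read, 1 of 10, was NOL, a chlorophyll b reductase. Its signals were 81.8 (Col-0), 92.6 (line A) and 126 (line B). Line B was high, 1.54-fold above Col-0.

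The paralogs of LHCB4.1 could be read beside it. LHCB4.2 had signals of 5166, 4963 and 5421 in Col-0, line A and line B, in the order of LHCB4.1, but quantile normalization set the lines equal and both above Col-0, with a log2 ratio of 0.11. LHCB4.3, at 472, 511 and 484, had line A as its highest array, with a log2 ratio of 0.08 over line B (0.047 under quantile normalization). PORA, PORC and PSAE2 have no probe set of their own in the annotation used.

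In photosystem I, PSAN, a subunit on the lumen side where plastocyanin docks, had signals of 3663, 3771 and 4059. It shared the order of PSAE1, with Col-0 lowest and line B highest, although under quantile normalization line A was the highest for PSAE1. Log2 ratios over Col-0 were 0.04 and 0.15 for PSAN, against 0.16 and 0.26 for PSAE1.

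Of 22 genes of photosystem II and electron transport 4 could be read. PSBW, a small subunit of photosystem II, had signals of 4061, 3831 and 4359, and PSBY, another, had 5392, 4683 and 5177. PSB27, which takes part in assembly and repair of photosystem II, had 3271, 3088 and 3823. ATPC1, the gamma subunit of the plastid ATP synthase, had 3798, 3657 and 4129. Line A was the low array for all 4 genes, with log2 ratios over Col-0 between -0.20 and -0.05, but under quantile normalization PSBW, PSB27 and ATPC1 had ratios above 0 (0.013, 0.064 and 0.042).

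Beside RCA, the Calvin cycle list gave PRK, which regenerates the acceptor of carbon dioxide, and SBPASE, a phosphatase of the regeneration phase. PRK had signals of 3995, 3839 and 4389, and SBPASE had 2848, 2787 and 3278. Line B was the highest array for both and Col-0 the highest for RCA, under quantile normalization as well.

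**Figure D3:**
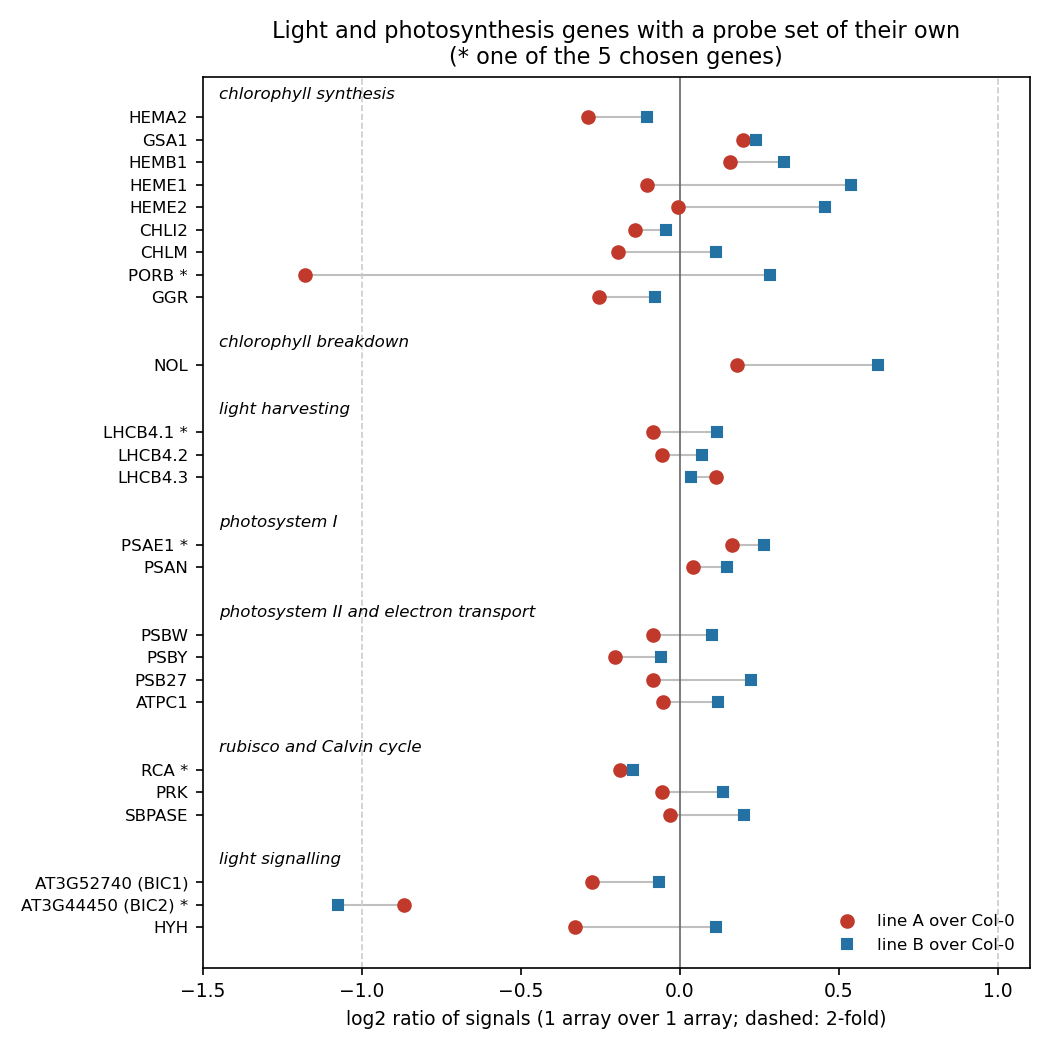
Log2 ratio over Col-0 of line A (red circles) and line B (blue squares) for the 25 listed genes with a probe set of their own, grouped by list, with the 5 chosen genes starred and dashed lines at 2-fold. PORB in line A and AT3G44450 in line B are the only points past a dashed line; the lines share the Col-0 array.

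The small differences between the lines ran mostly one way. Of the 20 listed genes other than the chosen 5, 19 had a lower signal in line A than in line B, LHCB4.3 being the exception, with a median log2 ratio of -0.19. Loess centring also gave 19, and quantile normalization gave 18 with 1 tie. All of these genes were read on the same pair of arrays, so they are not separate observations, and their count was not tested. Among the 616 probe sets with a mean signal of 1000 or more, 61.9% were lower in line A than in line B, with a median log2 ratio of -0.05. Of the 6697 probe sets reaching 100, 3348 were lower. Against Col-0 the split in line A depended on the scaling: 15 of the 20 genes were below Col-0, 14 after loess centring and 9 after quantile normalization. In line B 5 of the 20 were below Col-0, and 6 after quantile normalization. Of the 616 probe sets with a mean signal of 1000 or more, 64.8% (line A) and 48.4% (line B) were below Col-0, and of the 6697 reaching 100 the shares were 55.7% and 54.4%.

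Light signalling, the setting of AT3G44450, was thinly covered, with 3 of 42 genes read. AT3G52740, known as BIC1, the paralog of BIC2, read 59.1 on the Col-0 array, 48.8 on that of line A and 56.5 on that of line B. Its log2 ratios over Col-0 were -0.28 and -0.06, against -0.87 and -1.08 for AT3G44450, and its signals lie nearer the floor of 25. HYH, a bZIP transcription factor gene close to HY5, a promoter of photomorphogenesis, had signals of 154, 123 and 167. Line A was its low array, with a log2 ratio of -0.33 over Col-0 and of -0.44 over line B. No cryptochrome or phytochrome gene on the list has a probe set of its own in the annotation used.

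The named genes with the most similar pattern were found by the distance between pairs of log2 ratios over Col-0, line A and line B, across the 3 arrays and 3319 probe sets. For AT3G44450 they were AT4G26550, AT3G06570, AT3G47800 and AT1G13640, at distances of 0.048, 0.073, 0.094 and 0.098. AT1G13640 read 311 (Col-0), 179 (line A) and 155 (line B), close to the 301, 165 and 143 of AT3G44450. The other neighbours were dimmer, with Col-0 signals from 114 to 137 and signals from 54.7 to 75.0 in the lines. They reached 100, as candidates had to, only on the Col-0 array, where this pattern is high. PORB had no neighbour that close. AT3G50430, AT1G34630, AT2G40430 and AT1G72410 lay at 0.39, 0.39, 0.40 and 0.43. Each was under 100 in line A and reached 100 only on other arrays. AT1G72410 had signals of 207, 78.8 and 195, and AT3G50430 of 109, 40.4 and 107, with line A as the low array in each. Likeness over 3 arrays describes these arrays and says nothing of shared function.

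**Figure D4:**
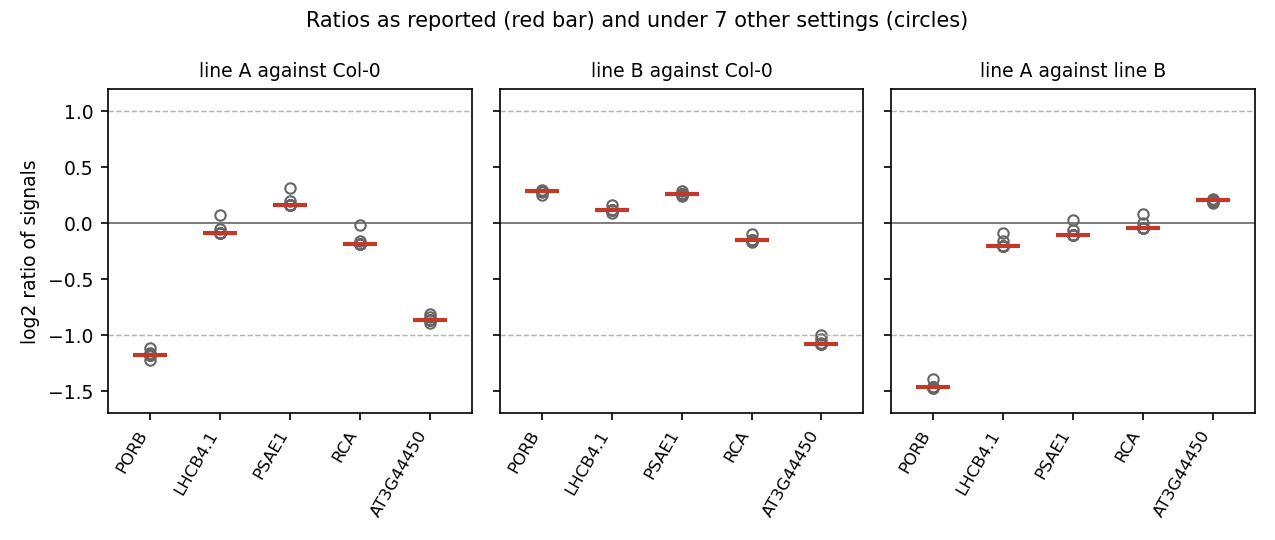
Log2 ratio of each of the 5 genes in the 3 comparisons as reported (red bar) and under 7 other settings of scaling, floor or probe set choice (open circles), with dashed lines at 2-fold. Leaving out the rescaling, the other floors and the probe set choice could hardly move these genes. The circles away from the bar come from quantile normalization, loess centring and the pseudocount. PORB stays past 2-fold in line A against Col-0 (between -1.22 and -1.12) and against line B (between -1.48 and -1.39), and the circles of LHCB4.1, PSAE1 and RCA lie near 0 and cross it in some panels.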

How the data were processed

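The values deposited by the authors are linear MAS5 signals (intensity), 1 for each probe set on each array, per the submitters' processing notes. No software version, detection call or genome build is given in the sources used here, and coordinates were therefore left out. Arrays have no depth: their number limits the precision. The highest deposited signal was 7645 (Col-0), 6919 (line A) or 8291 (line B), and the medians were 35.3, 31.5 and 34.2. Each array was rescaled to a mean of 100 after trimming 2% at each end, and a floor of 25 was applied ahead of log2 ratios. Of 22810 probe sets, 64 controls were left out. The platform annotation gives 1 gene to 13513 probe sets, several to 503 and none to 8730, and 13436 matched a TAIR10.1 locus. Gene lists were matched by locus number. The genes, lists and rules were chosen with earlier results of these data known. The rule named the 5 genes, their paralogs, each list's genes past 2-fold or among its 8 brightest, and 4 nearest patterns for PORB and AT3G44450 (higher signal at least 100). The counting was checked on simulated data, with changes of 3-fold or more and a smaller spread of ratios than these arrays show. That check says nothing of calls near the 2-fold threshold. Other settings tried were loess centring (span 0.4), quantile normalization, the signals without rescaling, a pseudocount of 16, a floor of 10 or 50, 1.5-fold and 3-fold thresholds, leaving out probe sets ending in _s_at or _x_at, and means in place of medians or of the brightest probe set. Computations used Python 3.11.15, numpy 2.4.6, pandas 2.3.3, statsmodels 0.14.6 and matplotlib 3.10.9.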

Additional observations from a re-analysis of the deposited data

Results flagged for a closer look

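For 12 of the 25 genes read, line A was below Col-0 and line B above it; each line has 1 array and the difference was not tested. Among them are PORB and LHCB4.1 of the chosen genes, and 10 of the other 20. The same pattern was found at 22.6% of the 616 probe sets with a mean signal of 1000 or more and at 14.8% of the 6697 reaching 100, and all of these ratios share the Col-0 array. For PORB the log2 ratio of line A over line B was -1.46, past 2-fold. The other 11 were under 2-fold: -0.64 for HEME1, -0.46 for HEME2, -0.44 for HYH, -0.31 for CHLM, -0.31 for PSB27, -0.23 for SBPASE, -0.20 for LHCB4.1, -0.19 for PRK, -0.19 for PSBW, -0.18 for ATPC1 and -0.13 for LHCB4.2. Under quantile normalization 5 of the 12 genes, PORB, HEME1, HEME2, CHLM and HYH, still lay on both sides of Col-0, and after loess centring 11 did, HEME2 being the exception.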

How the results depend on the processing

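Among the counts of chosen genes past the threshold and their medians, 73 of the values under other settings kept to the reported value (counts within 1.5 times, medians within 0.23 to 0.28 on the log2 scale, a spread taken from the 16th and 84th percentiles of ratios at signals of 100 or more), and 5 moved. That spread is wider than each of the 3 reported medians, and 2 of the 24 medians under other settings changed sign: in line B over Col-0 the mean in place of the median was -0.11 against 0.12, and in line A over line B quantile normalization gave 0.025 against -0.10. With a pseudocount of 16, 0 of the 5 genes were lower in line B than in Col-0, because AT3G44450 fell just short of 2-fold. At 1.5-fold, 2 genes were lower in line A than in Col-0, PORB and AT3G44450. At 3-fold, 0 were lower in any of the comparisons. No paired analysis was possible because each genotype has 1 array. For the same reason no array could be left out. Probe set choices changed nothing, since no listed gene has several probe sets and no chosen gene has a suffix of shared probes. Leaving out the rescaling could hardly change a value, since every deposited array already had a trimmed mean of 100.01. The other floors could not reach the chosen genes, whose lowest signal was 143 (AT3G44450 in line B). For the chosen genes, values under these settings kept to the reported ones by construction and are no check on them. Of the values for single genes and lists, 476 kept to the reported value and 7, all counts, moved.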
